A study of Mus musculus with 7 samples.

Results

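The 83 genes described here encode the main families of mouse heat shock proteins and their partners. They were taken by name from the 25912 entries listed in every library: symbols that start with Hspa, Hspb, Hspd, Hspe, Hsph, Hsp90 or Dnaj, together with Tcp1 and Cct2 to Cct8. The name rule gave 14 genes of the HSP70 family with Hsph1, 3 HSP90 genes, the mitochondrial pair Hspd1 and Hspe1, 8 Hspb genes, 45 DnaJ genes and 9 CCT genes. It also took Hspbp1 and Hspbap1, which are named for binding heat shock proteins and are no heat shock proteins themselves. Hspb11 carries an Hspb name but is known as a component of intraflagellar transport.

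Mouse oocytes of 3 conditions were sequenced by Smart-seq2, which primes cDNA on poly(A) tails, with 10 pooled oocytes in each library. The donors were 4-week-old PMSG-primed females of C57BL/6 background. GV oocytes (2 libraries, genotype label Control, treatment label NO) were arrested at the germinal vesicle stage before meiosis resumed. MII oocytes with DMSO (3 libraries, the solvent control) had matured to metaphase II. MII oocytes with BYBX (2 libraries, genotype label Treat) had been cultured in a small-molecule ligand that binds RNA G-quadruplexes (rG4s). The study reports that BYBX lowered the rate of first polar body emission and that treated oocytes reaching MII had abnormal spindles. Impaired maturation and the ligand itself cannot be told apart in a comparison of BYBX with DMSO. The study's methods say that GV oocytes also received DMSO, whereas their labels list no treatment, and no dose of BYBX is given with these libraries. Nothing states that the libraries of a group came from separate animals or cultures, so the p-values measure only the spread between these libraries, which may be technical.

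Chaperones hold unfolded proteins and help them reach their native form. HSP70 proteins bind short exposed stretches in cycles of ATP hydrolysis that J-domain (DnaJ) partners start and nucleotide exchange factors such as Hsph1 end, HSP90 proteins finish the folding of kinases and receptors, and the ring-shaped CCT complex folds actin and tubulin inside its chamber. A fully grown oocyte transcribes almost nothing, so its mRNA levels during maturation change through decay and through the length of the poly(A) tail, and a level from oligo-dT priming follows both.

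Because BYBX binds rG4s, the longest protein-coding transcript of each gene in GENCODE vM21 (build GRCm38, the same as mm10) was searched for a stretch of 4 G runs, each of 3 or more G, separated by 1 to 7 bases of any kind. Of the 83 genes, 82 had such a transcript and Cct6a had none under this name. The motif stood in 21 of the 82. The 4 matches below are from genes whose levels are given further on, with the runs of G in capitals, read 5′ to 3′ on the transcript. The Dnaja1 match lies in the 5′ UTR at chr4:40722923-40722950 on the plus strand, and the Hspd1 match shown in the 5′ UTR at chr1:55087882-55087903 on the minus strand. Hspd1 holds another match, not shown, in its coding sequence at chr1:55078310-55078336. The other matches lie in 3′ UTRs, for Hspb1 at chr5:135889137-135889155 on the plus strand and for Dnajb1 at chr8:83610899-83610916 on the plus strand.
Dnaja1: GGGGtgaGGGGctgcGGGaggagccGGG
Hspd1: GGGGccgcGGGGcGGGGcGGGG
Hspb1: GGGcGGGGaggtGGGGGGG
Dnajb1: GGGaGGGcccaGGGaGGG
In the Hspb1 match the last stretch of G counts as 2 runs with a G between them. None of the 8 CCT genes with a transcript held the motif.

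The last 100 bases of the same transcripts were searched for the cytoplasmic polyadenylation element (CPE), a short U-rich signal that directs tail lengthening in maturing oocytes, as TTTTAT or TTTTAAT on the transcript strand. Where the longer form runs on into the AATAAA poly(A) signal, the 2 overlap and are still counted as a match. Of the tested genes 9 held the element, and their log2 changes from GV to DMSO-treated MII ran from -0.68 (Dnajc3) to -3.56 (Dnajb6). Shown, with the element in capitals, are the matches of 4 of them with small falls (Hsp90ab1, Dnajc8, Dnajc3 and Dnajb4) and 2 with large ones (Dnajb6 and Dnajc9), chosen after their values were seen. They lie in 3′ UTRs, for Hsp90ab1 at chr17:45567775-45567788 on the minus strand, for Dnajc8 at chr4:132553720-132553742 on the plus strand, for Dnajc3 at chr14:118981644-118981673 on the plus strand, for Dnajb4 at chr3:152183955-152183975 on the minus strand, for Dnajb6 at chr5:29786461-29786478 on the plus strand and for Dnajc9 at chr14:20384671-20384700 on the minus strand.
Hsp90ab1: atgcagTTTTATac
Dnajc8: ataaatTTTTATacccaagcctt
Dnajc3: caatatTTTTATgcccgtgtattttcacat
Dnajb4: tagtctTTTTAATagaatgtg
Dnajb6: atacagTTTTATacattt
Dnajc9: tgaactTTTTATctacaagagtgagagcca
All letters are those of the reference, and a match is a description of sequence.

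The files give FPKM, a level per transcript length, which the authors scaled to an added amount of ERCC spike-in RNA. Summed over all entries, the libraries held 402113 and 489569 FPKM in GV, 109732 to 127254 in DMSO and 201482 and 246710 in BYBX-treated oocytes. The number of reads behind a value is unknown. Summed over 8 oocyte markers, the level was 11258 to 14012 FPKM in GV, 1751 to 1905 in DMSO and 5346 to 6220 in BYBX-treated oocytes. Summed over 9 granulosa and cumulus markers, it was 8.02 to 15.3, 1.61 to 2.2 and 3.31 to 3.40 FPKM (Inha was the highest, and Ptx3 was listed at 0 throughout). Fewer cells and less RNA per cell cannot be told apart in pooled oocytes.

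Chaperone transcripts were lower in MII than in GV oocytes in every family, and less so after BYBX. All 60 genes that passed the filter of a mean of 1 FPKM over the group means were lower in DMSO-treated MII than in GV oocytes, none was higher, and the libraries of the 2 groups did not overlap for any of them. Over all 9202 entries tested, 88.3% were called lower and 92.5% had libraries below those of GV without overlap, so the count differed little from that of the transcriptome. Their median log2 change was -2.34, against -1.83 over all tested entries. The sizes ranged more widely: 40 of the 60 lay below the median of all entries and 20 above it, and 9 lay among the lowest 5% of all changes. The filter averages the 3 group means, so a gene low in MII could pass through its GV level, which favours calls lower than GV. Dnajc24, at means of 4.91 in GV, 0.0057 in DMSO and 1.59 in BYBX, is such a gene. The same filter applied to all 9202 entries. Without the filter, 68 of 83 were called lower. The share of all entries called without the filter is not given, and the 88.3% applies to the 9202 filtered entries only. Here and below, changes are differences of log2(FPKM + 1), which understate the changes of low genes, and a call is a Benjamini-Hochberg adjusted p under 0.05 in limma over all tested entries.

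BYBX-treated MII oocytes held more of these transcripts than the DMSO control. Of the 60 genes, 48 were higher, 0 were lower and 12 were not called, beside 65.2% of all tested entries called higher and 0.0326% called lower. For 52 genes both BYBX libraries lay above all 3 DMSO libraries, as they did for 79.0% of all entries. The median change was 1.19, against 0.84 over all entries, and 7 genes lay among the highest 5%. BYBX-treated oocytes were still below GV: 51 of the 60 were lower, 0 higher and 9 not called (69.2% and 0.315% of all entries were lower and higher), 58 had libraries below GV without overlap and 0 above (82.3% and 0.848% of all entries), and the median change was -1.21, against -0.99. With each library left out in turn, the median change of the 60 genes from GV to BYBX-treated MII ran from -1.46 to -1.15. The comparisons share their DMSO or GV libraries and are not independent of each other.

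These directions are those of the spike-in scale. When every library was brought to the same total FPKM, 35 of the 60 genes were lower and 5 higher in DMSO-treated MII than in GV oocytes, and when every library was centred on its median, 23 were lower and 18 higher. With BYBX against DMSO the same scalings gave 31 higher and 3 lower, and 19 higher and 14 lower. For BYBX against GV they gave 9 lower and 0 higher, and 10 lower and 2 higher. The shares of all tested entries called at these scalings are not given, here or by family below. These counts therefore do not set the 60 genes apart from the transcriptome. The median change of all entries from GV to DMSO-treated MII was -1.83 on the spike-in scale, -0.56 at equal totals and 0.47 after centring. With BYBX against DMSO it was 0.84, 0.34 and -0.44, and with BYBX against GV -0.99, -0.17 and 0.037. Ranked among the changes of all tested entries from GV to DMSO-treated MII, from the largest fall up, Cct5 stood at percentile 0.174, Hspa8 at 0.424, Dnaja1 at 1.22, Dnajc11 at 1.65, Hspa5 at 15.2, Hspd1 at 34.8, Hsp90aa1 at 60.6 and Dnajc3 at 85.1.

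**Figure D1:**
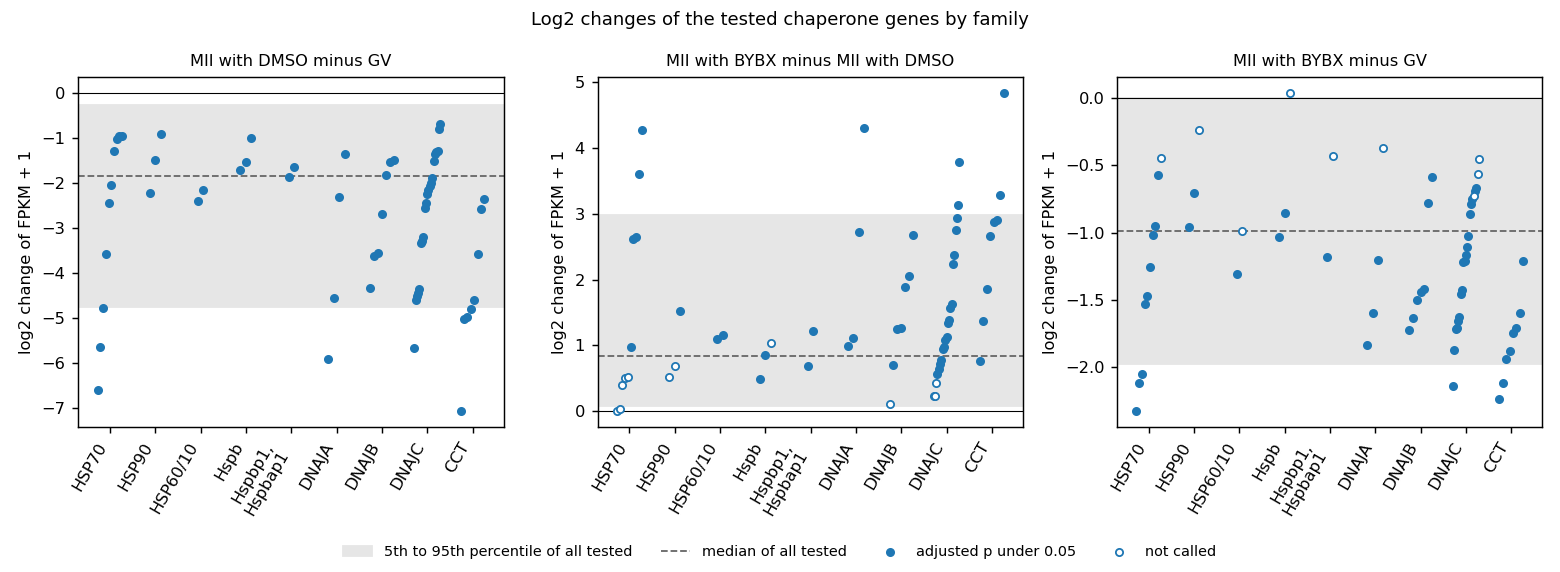
Log2 changes of FPKM + 1 of the 60 tested genes by family in the 3 comparisons, with the median of all tested entries (dashed) and their 5th to 95th percentile (grey); filled points had an adjusted p under 0.05. The CCT genes sit low in DMSO-treated MII minus GV, where all 8 lie below the median of -1.83, and 7 of 8 lie above the median of 0.84 in BYBX minus DMSO.

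The CCT genes, which encode the 8 kinds of subunit of the cytosolic folding ring, fell the furthest. Their summed level was 1138 and 789 FPKM in GV, 23.3, 23.7 and 24.4 in DMSO and 217 and 244 in BYBX-treated oocytes, that is 2.47% and 23.9% of the GV mean. As a share of the library total the sum was 9.27% and 48.7% of that in GV, so the direction held on this scale too. From GV to DMSO-treated MII all 8 tested genes fell (median change -4.70), all 8 gained with BYBX against DMSO (median 2.77), and all 8 remained under GV after BYBX (median -1.81). At equal totals these 3 counts were 8, 7 and 3. Cct6b, a testis form, was listed at no more than 0.0625 FPKM in any library and was not tested.

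Cct5, the epsilon subunit gene (chr15:31590800-31601804, minus strand), was the most abundant CCT transcript in GV oocytes. Its level was 579 and 403 in GV, 2.35, 2.12 and 3.44 in DMSO and 99.5 and 104 in BYBX-treated oocytes. The 3 groups did not overlap, and the DMSO libraries stood at 0.432% to 0.70% of the GV mean. The log2 change was -7.07 ± 0.27, adjusted p = 2.5e-10 from GV to DMSO-treated MII, and 4.84 ± 0.27, adjusted p = 2.6e-08 from DMSO to BYBX. On this scale the fall was the largest of the 60 genes, but Dnajc24, at lower levels, kept a smaller part of GV (0.116%). With BYBX, Cct5 stayed at 20.8% of the GV mean (-2.23 ± 0.29, adjusted p = 7e-05).

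Cct7, the eta subunit gene, and Cct8, the theta subunit gene, kept a larger part of their transcripts. Cct7 was at 66.8 and 47.5 in GV, 8.44, 8.70 and 8.66 in DMSO and 24.8 and 22.8 in BYBX-treated oocytes, or 15.0% and 41.6% of its GV mean. Cct8 was at 26.4 and 17.9 in GV, 4.12, 3.57 and 2.71 in DMSO and 5.73 and 7.4 in BYBX-treated oocytes, with 15.7% left after DMSO. The libraries of the 3 groups were separate for both genes. Cct8 had the smallest gain with BYBX of the CCT genes (0.76 ± 0.26, adjusted p = 0.0194), and it was not called without DMSO 3 (0.63 with an adjusted p of 0.0813) or without BYBX 2 (0.60 with an adjusted p of 0.127). The exons of Cct7 and Cct8 overlap those of Pradc1 and Usp16 on the opposite strand, and Usp16 stood at 25.2, 14.8 and 17.7 FPKM on average in the 3 groups. The strand of the reads is not stated, so their part in these levels was not tested.

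The other subunits lay between these. Cct2 (beta), Cct3 (gamma), Cct4 (delta), Cct6a (zeta) and Tcp1 (alpha) were at 1.09% to 2.68% of GV with DMSO and at 22.3% to 27.9% with BYBX. Tcp1, for which the complex was first named, was at 127 and 90.6 in GV, 2.45, 3.21 and 3.10 in DMSO and 28.2 and 28.7 in BYBX-treated oocytes, and its groups were separate. Tcp1 shares exonic bases with Mrpl18 on the opposite strand, whose mean was 155, 47.3 and 96.9 FPKM. Cct4 and Cct6a differed between the BYBX libraries, at 8.84 and 20.5 and at 1.83 and 5.01 FPKM, and BYBX 2 was the higher for both.

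Because the subunits fell by unequal amounts, the make-up of the CCT transcripts differed between the groups, a quantity that no scaling of whole libraries can change. Cct5 made up 50.9% and 51.1% of the summed CCT level in GV, 10.1%, 8.94% and 14.1% in DMSO and 45.9% and 42.8% in BYBX-treated oocytes. Cct7 went the other way, from 5.87% and 6.03% to 36.3%, 36.6% and 35.5%, and stood at 11.4% and 9.37% with BYBX. Cct8 was at 2.32% and 2.27%, then 17.7%, 15.1% and 11.1%, and 2.64% and 3.03%. For all 3 genes the DMSO libraries lay apart from both other groups, with the BYBX libraries nearer to GV. Cct2 and Tcp1 kept similar shares, 15.1% to 18.3% and 10.5% to 13.5% over the 7 libraries. The highest subunit transcript exceeded the lowest tested one by 35.8 to 41.8 times in GV, 43.4 to 81.7 times in DMSO and 20.8 and 54.4 times in BYBX-treated oocytes. The complex takes up its subunit proteins in equal number, and protein was not measured here. The highest was Cct5 in GV and BYBX and Cct7 in DMSO libraries, and the lowest was Cct6a in all 7. In the DMSO libraries Cct6a was at 0.103, 0.109 and 0.200 FPKM, near the floor, so the DMSO ratios are uncertain.

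**Figure D2:**
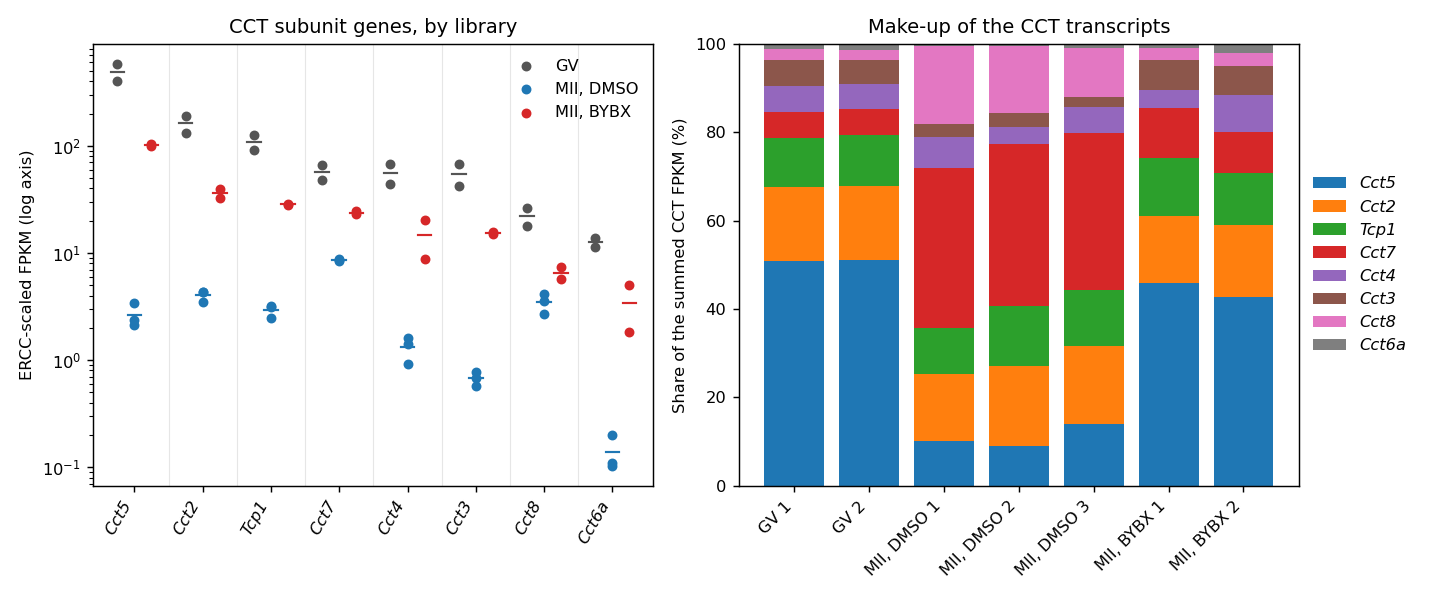
Left, ERCC-scaled FPKM (log axis) of the 8 tested CCT genes in each library with group means as bars; right, the share of each gene in the summed CCT level of each library in percent. Cct5 (blue) makes up 42.8% to 51.1% in GV and BYBX libraries and 8.94% to 14.1% in DMSO libraries, where Cct7 (red) makes up 35.5% to 36.6%.

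The HSP70 family lost nearly as much as CCT in sum, but its members divided. The summed level was 1246 and 740.1 FPKM in GV, 59.2, 56.9 and 49.0 in DMSO and 214 and 317 in BYBX-treated oocytes, or 5.54% and 26.7% of GV (21.1% and 55.7% as a share of the library total). Of 14 genes 10 were tested. All 10 fell from GV to DMSO-treated MII (median -2.24), 5 gained with BYBX against DMSO, and 9 remained under GV after BYBX. At equal totals 5 fell and Hspa14 rose from GV to DMSO-treated MII, 4 gained with BYBX against DMSO, and 2 remained under GV after BYBX.

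Hspa8 (chr9:40800984-40810087, plus strand) encodes HSC70, the constitutive cytosolic HSP70. It was the second most abundant of the 83 transcripts in GV and ranked 23 in DMSO-treated MII oocytes. Its level was 701 and 389.9 in GV, 5.44, 4.42 and 3.53 in DMSO and 76.2 and 140.4 in BYBX-treated oocytes. The groups were separate, with GV 1 above GV 2 and BYBX 2 above BYBX 1. The change was -6.60 ± 0.33, adjusted p = 6.7e-10 from GV to DMSO-treated MII and 4.27 ± 0.33, adjusted p = 1.9e-07 from DMSO to BYBX, which left Hspa8 at 19.9% of GV.

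Hspa4 and Hsph1, both HSP110-type proteins that release ADP from HSP70, moved with it. Hspa4 was at 86.6 and 56.9 in GV, 0.396, 0.361 and 0.480 in DMSO and 14.3 and 18.3 in BYBX-treated oocytes, so that 0.574% of the GV mean was left with DMSO and 22.7% with BYBX. No libraries of the 3 groups overlapped. The changes were -5.66 ± 0.25, adjusted p = 3.8e-10 and, with BYBX against DMSO, 3.61 ± 0.25, adjusted p = 9.5e-08. Hsph1 was at 179 and 96.4 in GV, 3.88, 3.34 and 4.39 in DMSO and 20.1 and 43.0 in BYBX-treated oocytes, also without overlap. Its change was -4.77 ± 0.34, adjusted p = 1.3e-08 from GV to DMSO-treated MII and 2.65 ± 0.34, adjusted p = 1.5e-05 from DMSO to BYBX. Hspa4l, of the same type, fell less, to 12.3% of GV (-2.45 ± 0.25, adjusted p = 4.5e-07), and was at 3.59 and 5.01 FPKM with BYBX.

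Hspa5 encodes BiP, the HSP70 of the endoplasmic reticulum. It was at 108 and 87.7 in GV, 6.55, 8.0 and 7.37 in DMSO and 49.5 and 50.6 in BYBX-treated oocytes, in 3 separate groups with little spread after maturation. The fall was -3.57 ± 0.24, adjusted p = 8.3e-09, the gain with BYBX 2.62 ± 0.24, adjusted p = 8.3e-07, and 51.1% of the GV mean was left with BYBX, more than for any other HSP70 gene above 10 FPKM in GV except Hspa14. Hspa9, the mitochondrial HSP70, was at 107 and 63.7 in GV, 19.3, 23.7 and 15.9 in DMSO and 25.3 and 30.8 in BYBX-treated oocytes. Its BYBX libraries lay just above the DMSO libraries, and the difference was not called (0.50 ± 0.29, adjusted p = 0.138). The ratio of Hspa9 to Hspa8, which whole-library scaling cannot change, was 0.153 and 0.163 in GV, 3.55 to 5.36 in DMSO and 0.332 and 0.219 in BYBX-treated oocytes.

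The remaining HSP70 genes had the smallest log2 falls from GV to DMSO-treated MII. Hspa14, a ribosome-associated HSP70, was at 35.8 and 26.1 in GV, 18.7, 13.3 and 14.1 in DMSO and 21.2 and 23.3 in BYBX-treated oocytes and kept 49.8% of GV with DMSO, a fall of -0.96 ± 0.26 (adjusted p = 0.00339) that lay above the median of all entries. Its difference between BYBX and DMSO was not called (0.52 ± 0.26, adjusted p = 0.0958), nor that between BYBX and GV (-0.44 ± 0.28, adjusted p = 0.178). Hspa12a, Hspa13 and Hspa2, a germ-cell HSP70, stood at 1.64 to 4.33 FPKM in GV and at 0.434 to 0.984 with DMSO, falls of -0.96 ± 0.20, -1.02 ± 0.25 and -1.28 ± 0.29. Differences of log2(FPKM + 1) understate changes at such low levels. With DMSO these 3 genes kept 30.2%, 25.9% and 23.6% of GV, beside 23.0% for Hspa9. None of the 3 was called between BYBX and DMSO (adjusted p = 0.1, 0.993 and 0.931), where the BYBX libraries disagreed: Hspa2 was at 0.234 and 1.79 FPKM and Hspa13 at 0.177 and 1.12, on either side of the DMSO libraries. Without BYBX 2 the change of Hspa12a became 0.61 with an adjusted p of 0.026, and its fall from GV to BYBX (adjusted p = 0.0328) was lost without GV 1, DMSO 2 or BYBX 2 (adjusted p = 0.156, 0.0541 and 0.205). Without GV 1, Hspa13 was not called from GV to DMSO (adjusted p = 0.0573), and neither Hspa13 nor Hspa2 from GV to BYBX (adjusted p = 0.0945 and 0.0873).

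The stress-inducible Hspa1a and Hspa1b did not reach the filter. Hspa1a was at 1.38 and 0.682 in GV, 0.0444, 0.0695 and 0.00300 in DMSO and 0.665 and 0.681 in BYBX-treated oocytes, and Hspa1b at 1.30 and 0.830 in GV, 0.105, 0.195 and 0.0807 in DMSO and 1.40 and 0.872 in BYBX-treated oocytes. Both were lowest in the DMSO libraries. The 2 genes are nearly identical in sequence, and reads could be split or lost between them, so each level is uncertain. Hspa12b and Hspa1l stayed at or below 0.232 FPKM.

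**Figure D3:**
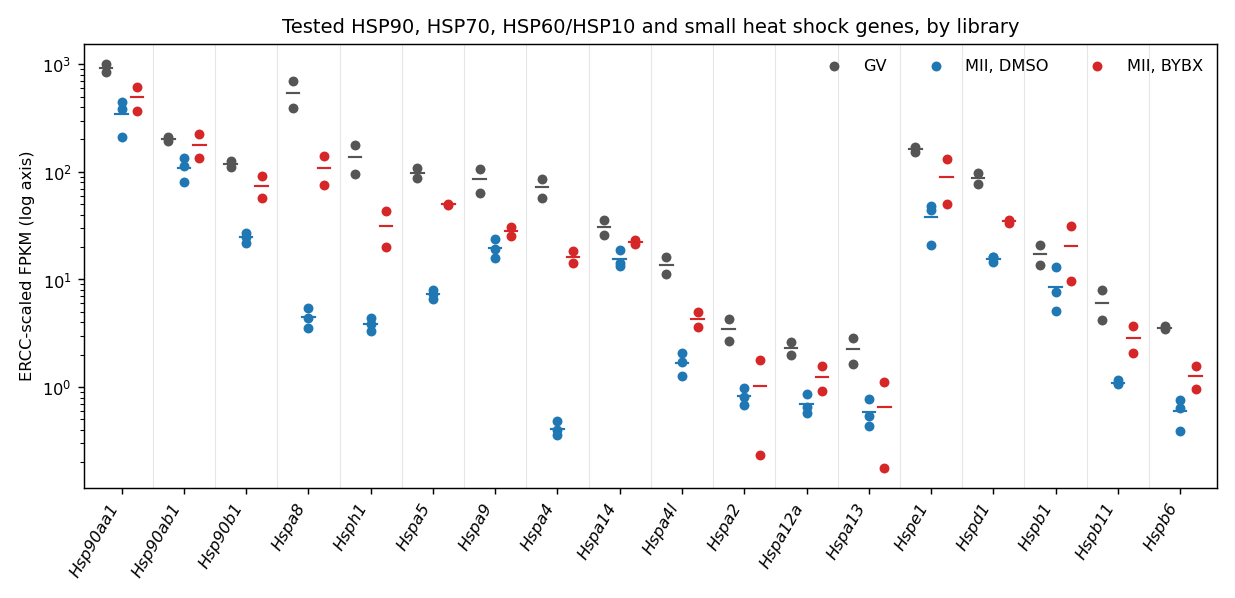
ERCC-scaled FPKM (log axis) of the tested HSP90, HSP70, HSP60/HSP10 and Hspb genes in each library, with group means as bars. Hspa8 and Hspa4 are separated by a wide gap between GV and DMSO libraries. Hsp90aa1, Hsp90ab1 and Hspa14 have smaller gaps on this axis, with their GV libraries still above all DMSO libraries.

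The HSP90 genes kept more of their transcripts than the other large families. Their sum was 1193 and 1309 FPKM in GV, 316, 579 and 549 in DMSO and 927 and 563 in BYBX-treated oocytes, that is 38.5% and 59.5% of GV. As a share of the library total it was 0.244% and 0.326% in GV, 0.288%, 0.469% and 0.431% in DMSO and 0.376% and 0.279% in BYBX-treated oocytes. The mean shares with DMSO and BYBX were 139% and 115% of that in GV, but the libraries of the 3 groups overlapped and the share was not tested. All 3 genes fell from GV to DMSO-treated MII, Hsp90b1 alone was called higher in BYBX than in DMSO libraries, and Hsp90aa1 and Hsp90b1 were called lower with BYBX than in GV. At equal totals Hsp90ab1 was higher with DMSO than in GV and no HSP90 gene was lower.

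Hsp90aa1 (chr12:110690605-110702728, minus strand), the inducible cytosolic form, was the most abundant of the 83 transcripts in each group. It was at 854 and 1002 in GV, 211, 443 and 387 in DMSO and 612 and 371 in BYBX-treated oocytes. DMSO 1 was the lowest library, and BYBX 2 lay within the range of the DMSO libraries. The fall with maturation was -1.48 ± 0.32, adjusted p = 0.00071, the difference between BYBX and DMSO was 0.53 ± 0.32, adjusted p = 0.167, and the difference between BYBX and GV was -0.96 ± 0.36, adjusted p = 0.0284. The last was lost without GV 1, GV 2 or BYBX 2 (adjusted p = 0.112, 0.166 and 0.215).

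Hsp90ab1 (chr17:45567775-45573271, minus strand), the constitutive form and a carrier of the CPE shown above, was at 213 and 195 in GV, 80.4, 114 and 134 in DMSO and 223 and 135 in BYBX-treated oocytes. BYBX 1 exceeded both GV libraries. The change was -0.92 ± 0.29, adjusted p = 0.00962 from GV to DMSO-treated MII, and it was not called without GV 1 (-0.86 with an adjusted p of 0.0804). From DMSO to BYBX it was 0.69 ± 0.29, adjusted p = 0.0543, and it was called without DMSO 3 (adjusted p = 0.0351) or without BYBX 2 (1.05 with an adjusted p of 0.0183). From GV to BYBX it was -0.23 ± 0.32, adjusted p = 0.529, with 87.6% of the GV mean left, and the sign turned without BYBX 2 (0.13).

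Hsp90b1 encodes GRP94 of the endoplasmic reticulum. Its level was 126 and 111 in GV, 25.0, 21.9 and 27.3 in DMSO and 91.1 and 57.6 in BYBX-treated oocytes, in 3 separate groups. It fell with maturation (-2.22 ± 0.27, adjusted p = 2.7e-06) and was higher with BYBX (1.52 ± 0.27, adjusted p = 0.00024). The difference from GV with BYBX, -0.70 ± 0.29, was just past the threshold (adjusted p = 0.046) and was lost without either GV library, DMSO 2, DMSO 3 or BYBX 2, where the adjusted p lay between 0.055 and 0.372. The ratio of Hsp90aa1 to Hspa8 was 1.22 and 2.57 in GV, 38.7, 100.4 and 110 in DMSO and 8.03 and 2.64 in BYBX-treated oocytes. The DMSO libraries stood above all others, and BYBX 2 lay close to GV 2.

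Hspd1 and Hspe1 encode the HSP60 chamber and HSP10 lid of the mitochondrial matrix and are transcribed from a shared promoter in opposite directions, with some exonic bases in common. Hspd1, with the rG4 motif shown above in its 5′ UTR, was at 97.7 and 77.5 in GV, 14.5, 16 and 16.2 in DMSO and 35.7 and 33.5 in BYBX-treated oocytes, in 3 separate groups. It was lower with DMSO (-2.41 ± 0.24, adjusted p = 4.2e-07) and higher with BYBX than with DMSO (1.10 ± 0.24, adjusted p = 0.00132). Hspe1 was at 154 and 171 in GV, 21.1, 44.4 and 48.3 in DMSO and 131 and 50.2 in BYBX-treated oocytes, where BYBX 2 came close to the upper DMSO libraries and DMSO 1 was the lowest. It was lower with DMSO than in GV (-2.15 ± 0.40, adjusted p = 0.0002) and higher with BYBX (1.16 ± 0.40, adjusted p = 0.0219), the latter not called without BYBX 1, GV 1 or GV 2 (adjusted p = 0.351, 0.0687 and 0.0688). The difference from GV with BYBX was not called (-0.99 ± 0.44, adjusted p = 0.0612) and was called without DMSO 1 (adjusted p = 0.0105) or BYBX 1 (-1.67 with an adjusted p of 0.00438). The level ratio of Hspe1 to Hspd1 ranged from 1.45 to 3.67 over the 7 libraries, and the groups overlapped.

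Of the 8 Hspb genes 3 were tested, and 2 of those are small heat shock proteins that hold unfolded proteins without ATP. Hspb1 (HSP27), whose 3′ UTR match is shown above, was at 21.1 and 13.7 in GV, 5.10, 7.57 and 13.1 in DMSO and 31.3 and 9.59 in BYBX-treated oocytes. The BYBX libraries differed by 3.26 times, with BYBX 1 above both GV libraries and BYBX 2 within the range of the DMSO libraries. The fall with DMSO, -1.0 ± 0.43 with an adjusted p of 0.0442, was lost without GV 1, GV 2, DMSO 1 or DMSO 2 (adjusted p between 0.0592 and 0.349). The difference between BYBX and DMSO was 1.03 ± 0.43, adjusted p = 0.0506, and it was called without DMSO 3 (adjusted p = 0.0169) or BYBX 2 (1.84 with an adjusted p of 0.00141). Against GV the BYBX mean was 117% (0.038 ± 0.48, adjusted p = 0.947), and the sign turned without GV 2 (-0.26) or BYBX 1 (-0.77).

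Hspb6 (HSP20) was lower and in 3 separate groups, at 3.45 and 3.71 in GV, 0.766, 0.392 and 0.642 in DMSO and 0.966 and 1.56 in BYBX-treated oocytes. Its fall was -1.52 ± 0.20, adjusted p = 5.9e-06, and its gain with BYBX, 0.49 ± 0.20 at an adjusted p of 0.0418, was lost without any DMSO library or BYBX 2 (adjusted p between 0.0551 and 0.242). Hspb6 shares exonic bases with Lin37 on the opposite strand, which had means of 47.4, 2.65 and 14.6 FPKM. Hspb11 was at 4.25 and 7.92 in GV, 1.15, 1.06 and 1.08 in DMSO and 2.05 and 3.72 in BYBX-treated oocytes, with a fall of -1.71 ± 0.26, adjusted p = 3e-05 and a gain of 0.86 ± 0.26, adjusted p = 0.0112. The gain was lost without BYBX 2 (adjusted p = 0.118), and the difference from GV with BYBX, -0.85 ± 0.29, adjusted p = 0.0175, without GV 2 or BYBX 1 (adjusted p = 0.171 and 0.143). Summed, the Hspb genes stood at 37.8% of GV with DMSO and 90.3% with BYBX, and at 138% and 174% as a share of the library total. Both values with BYBX rest on BYBX 1: the sum was 126% of the GV mean in BYBX 1 and 55.0% in BYBX 2, and the share 226% and 121%. Hspb2 and Hspb7 were listed at 0 in all 7 libraries, and Hspb3, Hspb8 and Hspb9 reached at most 0.223 FPKM.

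On the spike-in scale, the 4 DNAJA genes, whose type of J protein also binds substrates itself, all fell and all gained. At equal totals 2 of the 4 were lower with DMSO than in GV and 2 were higher with BYBX than with DMSO. Only 1 was then lower with BYBX than in GV. The family sum was 640.4 and 520.1 FPKM in GV, 26.5 to 30.2 in DMSO and 188 and 211 in BYBX-treated oocytes, or 4.84% and 34.4% of GV (18.1% and 68.8% as a share of the library total). Dnaja1 (chr4:40722150-40737149, plus strand), the main cytosolic form, made up most of it, at 454 and 393 in GV, 3.60, 7.67 and 7.73 in DMSO and 152 and 127 in BYBX-treated oocytes. The groups were separate. Its fall of -5.91 ± 0.31, adjusted p = 8.3e-10 was the third largest of the 60 genes, after Cct5 and Hspa8, and its gain with BYBX of 4.31 ± 0.31, adjusted p = 1e-07 was the second largest. Dnaja1 shares exonic bases with Smu1 on the opposite strand, which had means of 136, 57.4 and 83.0 FPKM, and its part in these levels was not tested.

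Dnaja3 (TID1, of mitochondria) was at 74.0 and 49.2 in GV, 2.0, 1.67 and 1.22 in DMSO and 16.7 and 15.7 in BYBX-treated oocytes, with a fall of -4.56 ± 0.26, adjusted p = 1.6e-09 and a gain of 2.72 ± 0.26, adjusted p = 1e-06. Dnaja2 was at 100.3 and 65.2 in GV, 21.1, 13.9 and 12.7 in DMSO and 32.4 and 36.9 in BYBX-treated oocytes and fell by less (-2.31 ± 0.29, adjusted p = 4.1e-06). The difference of Dnaja2 between BYBX and GV, -1.20 ± 0.32, adjusted p = 0.00445, was lost without GV 1 (adjusted p = 0.0662). Dnaja4 kept the most, 34.3% and 75.7% of GV, at 12.3 and 12.4 in GV, 3.53, 4.30 and 4.93 in DMSO and 10.3 and 8.46 in BYBX-treated oocytes, and its difference between BYBX and GV was not called (adjusted p = 0.206). Dnaja4 shares exonic bases with Wdr61 on the opposite strand, which had means of 19.3, 4.51 and 12.5 FPKM, and its part was not tested. The libraries of the 3 groups did not overlap for any DNAJA gene.

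Among the 13 DNAJB genes 7 were tested. Their family sum was 827 and 674 FPKM in GV, 77.6, 92.0 and 91.9 in DMSO and 312 and 224 in BYBX-treated oocytes, or 11.6% and 35.7% of GV (43.1% and 70.6% as a share of the library total). In both MII groups all 7 were called lower than in GV, and 6 gained with BYBX against DMSO. At equal totals 5 of the 7 were lower with DMSO than in GV and 0 with BYBX than in GV. With BYBX against DMSO 5 were then higher and Dnajb4 was lower. Dnajb6, a suppressor of protein aggregation with the CPE shown above, was the third most abundant of the 83 transcripts in GV, at 526 and 462 in GV, 28.5, 46.5 and 51.0 in DMSO and 223 and 135 in BYBX-treated oocytes. The groups were separate, with a fall of -3.56 ± 0.31, adjusted p = 8.7e-08 and a gain of 2.06 ± 0.31, adjusted p = 5.8e-05. Dnajb1 (HSP40), the classic stress-inducible J protein, whose 3′ UTR match is shown above, was at 132 and 84.2 in GV, 9.90, 6.45 and 7.09 in DMSO and 26.7 and 36.5 in BYBX-treated oocytes and fell by 3.62 on the log2 scale (SE 0.29, adjusted p = 4e-08).

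Dnajb4 was the DNAJB gene that passed the filter and was not called between BYBX and DMSO. It was at 97.8 and 71.2 in GV, 30.6, 30.5 and 24.5 in DMSO and 31.6 and 29.7 in BYBX-treated oocytes. Both MII groups stood well below GV (-1.52 ± 0.26, adjusted p = 6.8e-05 with DMSO), and they overlapped each other, with 33.8% and 36.3% of GV left. The difference between BYBX and DMSO was 0.11 ± 0.26, adjusted p = 0.715, at the percentile of 6.01 among all tested entries. Whether it differed from that of the other DNAJB genes was not tested. Dnajb2, a neuronal co-chaperone with ubiquitin-binding motifs, fell furthest of the family above 10 FPKM, from 33.5 and 23.9 to 0.776, 0.150 and 0.532 FPKM (-4.32 ± 0.32, adjusted p = 1.7e-08), and was at 12.6 and 5.51 with BYBX (2.69 ± 0.32, adjusted p = 7.1e-06). Dnajb11 and Dnajb9, J proteins of the endoplasmic reticulum, were at 33.2% and 5.57% of GV with DMSO and at 56.8% and 57.3% with BYBX.

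The DNAJC genes, which share little beyond the J domain, spread over the whole range. Of 28 genes 21 were tested, and all 21 fell from GV to DMSO-treated MII (median -2.25), 18 gained with BYBX against DMSO, and 18 remained under GV after BYBX. Their sum was 1007 and 844 FPKM in GV, 150.0, 183 and 206 in DMSO and 479 and 335 in BYBX-treated oocytes, or 19.4% and 44.0% of GV (71.7% and 86.8% as a share of the library total). At equal totals 13 were lower with DMSO than in GV, and Dnajc1, Dnajc3 and Dnajc8 were higher. With BYBX against DMSO 11 were then higher and Dnajc1 and Dnajc3 lower, and 3 were lower with BYBX than in GV.

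With the largest log2 fall of the DNAJC genes was Dnajc11, of the mitochondrial inner membrane organizing system, at 214 and 154 in GV, 2.51, 3.47 and 1.98 in DMSO and 62.5 and 38.2 in BYBX-treated oocytes. Its groups were separate, its fall -5.66 ± 0.29, adjusted p = 8.6e-10 and its gain with BYBX 3.79 ± 0.29, adjusted p = 2e-07. Dnajc15, a J protein of the mitochondrial import motor, was at 18.8 and 20.3 FPKM in GV, was listed at 0 in all 3 DMSO libraries and was at 6.30 and 7.03 with BYBX. Against a group listed at 0 no fold is given, and 34.1% of GV was left with BYBX. Dnajc14 fell from 48.9 and 36.8 to 0.828, 0.981 and 0.90 FPKM and was at 8.90 and 8.86 with BYBX, where its change from GV of -2.14 ± 0.25, adjusted p = 6.3e-05 was the largest of the DNAJC genes. Dnajc7, a co-chaperone of HSP70 and HSP90, was at 54.5 and 45.3 in GV, 0.725, 1.26 and 1.36 in DMSO and 24 and 12.6 in BYBX-treated oocytes.

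In percent of GV, Dnajc3, Dnajc1 and Dnajc8 kept the most with DMSO. Dnajc1, at means of 15.6, 8.54 and 10.1 FPKM, shares exonic bases with Mllt10 on the opposite strand. Mllt10 had means of 92.6, 53.8 and 59.0 FPKM, and its part in the Dnajc1 levels was not tested. Dnajc3 encodes P58IPK, a J protein of the endoplasmic reticulum, and carries the CPE shown above. It was at 63.8 and 52.3 in GV, 31.8, 35.6 and 40.3 in DMSO and 47.3 and 37.1 in BYBX-treated oocytes. The GV libraries lay above the DMSO libraries by a small gap, and the MII groups overlapped. The fall, -0.68 ± 0.25 with an adjusted p of 0.022, was the smallest of the 60 genes and was lost without GV 1, DMSO 1 or DMSO 2 (adjusted p = 0.112, 0.0677 and 0.0566). Neither BYBX against DMSO (0.22 ± 0.25, adjusted p = 0.438) nor BYBX against GV (-0.45 ± 0.28, adjusted p = 0.158) was called.

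Dnajc8, a splicing-associated J protein and the most abundant DNAJC transcript, was at 247 and 207 in GV, 76.7, 90.8 and 106 in DMSO and 166 and 121 in BYBX-treated oocytes, in 3 separate groups, with 40.1% and 63.2% of GV left. Its fall was -1.32 ± 0.26, adjusted p = 0.0003. The gain with BYBX (0.64 ± 0.26, adjusted p = 0.0429) was lost without DMSO 1, DMSO 2 or BYBX 1 (adjusted p = 0.127, 0.0971 and 0.311), and the difference from GV with BYBX (-0.67 ± 0.29, adjusted p = 0.0497) without either GV library, DMSO 2, DMSO 3 or BYBX 2 (adjusted p between 0.0565 and 0.295). Dnajc2 (zuotin), which also holds a CPE and works at the ribosome with Hspa14, fell much more than its partner, to 9.18% of GV against 49.8%, and was at 86.3 and 76.1 in GV, 6.71, 7.43 and 8.22 in DMSO and 30.7 and 20.4 in BYBX-treated oocytes. Dnajc21, another ribosome-linked J protein, differed within groups, at 51.7 and 68.8 in GV, 5.73, 18.9 and 14.5 in DMSO and 38.4 and 17.6 in BYBX-treated oocytes, where DMSO 1 and BYBX 2 were low.

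**Figure D4:**
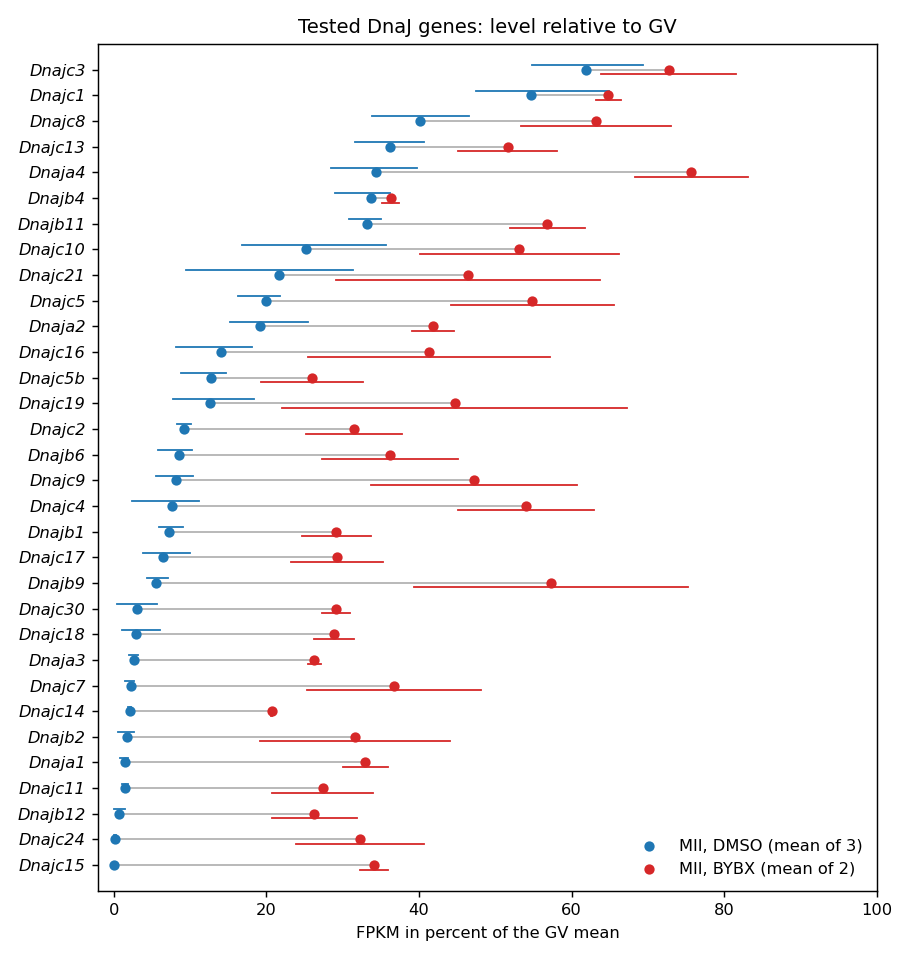
Level of the 32 tested DnaJ genes in percent of their GV mean for MII oocytes with DMSO (blue) and BYBX (red); points are group means and thin lines run from the lowest to the highest library. The order by the DMSO level runs from Dnajc15, listed at 0, to Dnajc3 at 61.8%, and every red point lies to the right of its blue point, for Dnajb4 by 36.3% against 33.8%.

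The 9 genes not called between BYBX-treated MII and GV oocytes came from 7 families. Of these, 7 reached 10 FPKM in 1 of the groups, and the 5 with the highest means were Hsp90ab1, Hspe1, Dnajc3, Hspa14 and Hspb1, all described above. A p that misses the threshold does not show that the groups were alike, and the standard errors of these 5 differences ran from 0.28 (Dnajc3) to 0.48 (Hspb1) on the log2 scale.

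Some calls of named genes rest on the filter. When no filter was applied, the changes stayed as given, and 19 calls among the 38 named genes were lost through larger adjusted p-values in limma. Their adjusted p-values from GV to DMSO-treated MII were 0.0793 for Hsp90ab1, 0.0618 for Hspa13, 0.0575 for Hspa2 and 0.308 for Hspb1. From DMSO to BYBX they were 0.106 for Cct8, 0.0705 for Dnaja2, 0.126 for Dnajc8, 0.145 for Hspb11, 0.135 for Hspb6 and 0.29 for Hspe1, and from GV to BYBX they were 0.0541 for Dnaja2, 0.0535 for Dnajb2, 0.108 for Dnajc8, 0.243 for Hsp90aa1, 0.109 for Hsp90b1, 0.112 for Hspa12a, 0.109 for Hspa13, 0.108 for Hspa2 and 0.14 for Hspb11.

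Partners of these chaperones outside the name rule were taken from a list of 45 regulators and cofactors, of which 40 were tested. With DMSO against GV 39 were lower, 0 were higher and Fkbp5 was not called (change -1.01, adjusted p = 0.0598). With BYBX against DMSO 31 were higher and 0 lower, and with BYBX against GV 32 were lower and 0 higher. The shares called lower, higher and lower among all tested entries were 88.3%, 65.2% and 69.2%. The list's medians were -2.84, 1.62 and -1.46. Cofactors of HSP90 were on both sides of the median of all entries: Stip1 (HOP), which links HSP70 to HSP90, was at 127, 3.50 and 32.0 FPKM in the 3 groups on average, and Cdc37, the kinase adaptor, at 47.0, 0.825 and 12.5, whereas Ahsa1, the ATPase activator, stayed at 174, 105 and 134. Trap1, the mitochondrial HSP90, fell by 5.11 on the log2 scale (adjusted p = 5.5e-10), beyond any HSP90 gene taken by name. The heat shock factors Hsf1, Hsf2 and Hsf5 were lower with DMSO (-1.22, -1.60 and -1.97), and Hsf1 stood at 33.8, 13.6 and 23.8 FPKM. Of the prefoldin genes, whose product hands actin and tubulin to CCT, all 6 were lower with DMSO and 5 were higher with BYBX, Pfdn6 with the widest swing at 130, 1.60 and 47.5 FPKM.

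The shares of genes with these sequence features are given as counts, with no test. The rG4 motif was found in 12 of the 59 tested genes with a transcript (20.3%) and in 18.7% of 8773 matched entries. The median change with BYBX against DMSO was 1.12 for the 12 genes with the motif and 1.21 for the 47 without it, and 0.77 and 0.86 over all matched entries. Among the largest changes with BYBX against DMSO were those of Cct5 and Hspa8, which hold no match (4.84 and 4.27), and of Dnaja1, which holds a match (4.31). These genes were chosen by their changes, and a link between motif and change was not tested. With runs of at least 2 G, 58 of 59 held a match, as did 97.2% of all. A CPE stood in 9 of the 59 genes (15.3%) and in 20.2% of all matched entries. The median change from GV to DMSO-treated MII was -1.52 with and -2.39 without it among the chaperone genes, and -1.26 and -1.98 over all matched entries, so that the genes with the element had the smaller median fall in both sets. Transcript length and the change from GV to DMSO-treated MII had a Spearman correlation of 0.06 over the 59 genes and 0.33 over all matched entries, in values that share the same libraries.

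The other genes under the filter had low levels when averaged over the groups, although some passed 1 FPKM in GV. Of the 23 that were not tested, Dnajb8, Hspb2 and Hspb7 were listed at 0 in all 7 libraries. Dnajc5g, a germ-cell cysteine string protein, was the highest of them, at 1.91 and 2.63 in GV, 0.0217, 0.0147 and 0.141 in DMSO and 0.667 and 0.561 in BYBX-treated oocytes. Dnajb14 and Dnajc25 came near 1 FPKM in GV. Dnajc12 was at 0.0558 and 0.173 in GV, 0, 0 and 0 in DMSO and 0.325 and 0.264 in BYBX-treated oocytes and was the only one of the 83 called higher with BYBX than in GV when no filter was applied (adjusted p = 0.0452), at levels below the filter. The tested interactors Hspbp1 and Hspbap1 were at 8.25% and 21.2% of GV with DMSO and at 65.4% and 39.9% with BYBX.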

How the data were processed

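Smart-seq2 cDNA from 10 oocytes per library was sequenced for GV (2 libraries), DMSO (3) and BYBX (2) groups, taken from the labels. The authors trimmed reads with Trim Galore 0.6.7, aligned uniquely mapped reads to mm10 with HISAT2 2.2.1, computed FPKM with Cufflinks 2.2.1 on UCSC gene models and scaled the deposited FPKM to ERCC spike-in RNA, with the GV samples of every batch as the common reference between batches. The factors are not stated, and the depth is unknown, so no counting error can be given. All 25912 entries were used except 4 with a missing value. Limma 3.58.1 in R 4.3.3 (lmFit, eBayes with trend) was fitted to log2(FPKM + 1) of all 7 libraries with 3 group means and 4 residual degrees of freedom, on the 9202 entries whose 3 group means averaged 1 FPKM or more, with Benjamini-Hochberg adjustment. In data simulated for DMSO minus GV on 9202 entries with 200 changed, it recovered 87% of 4-fold and 41% of 2-fold changes, with 2 false calls. In the real comparison 88.3% of entries were called lower, so the Benjamini-Hochberg cutoff was less strict there, and the simulated rates do not carry over. Transcripts and positions came from GENCODE vM21. No member has a repeated name. Genes were named if they belong to HSP70, HSP90, Hspd1 and Hspe1, Hspb or CCT and passed the filter, if among the 3 highest in GV of each DnaJ class, or if largest in change or uncalled at 10 FPKM or more, and other genes named were chosen after their values were seen. The members and lists were chosen with earlier results of these data known. Alternatives changed the pseudocount, filter, scaling, samples, replicate block, trend and repeated names, and left out each library. One further marker list is not reported here, and motif matches were printed for selected genes only.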

Additional observations from a re-analysis of the deposited data

How the results depend on the processing

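The counts of tested genes that fell from GV to DMSO-treated MII, gained with BYBX against DMSO and remained under GV after BYBX (60, 48 and 51) kept their direction and stayed within 1.5 times under a pseudocount of 0.1 FPKM (60, 48 and 46), a filter at 5 FPKM (46, 39 and 40 of 46), no filter (68, 40 and 40 of 83), only the groups compared (60, 46 and 46), no intensity trend (60, 47 and 49), repeated names left out (60, 49 and 51), a minimum of 2-fold (54, 35 and 39) and with each library left out in turn (55 to 60, 41 to 46 and 34 to 53). The settings differ in the number of genes tested, so the factor of 1.5 compares raw counts and not shares. Of the 60 genes above, 56, 35 and 35 were still called without the filter. The further calls without it came from genes below the filter. Without the filter, 1 gene was higher with BYBX than in GV, and otherwise these settings gave 0 calls in the other direction. The scalings moved the counts, as given with them. For the scalings and the other settings, the shares of all entries called are not given, so the counts describe the chaperone genes alone. At equal totals DMSO against GV had 35 lower and 5 higher, BYBX against DMSO 31 higher and 3 lower, and BYBX against GV 9 lower. After median centring DMSO against GV had 23 falls and 18 rises, BYBX against DMSO 19 rises and 14 falls, and BYBX against GV 10 falls and 2 rises.

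The numbers of the libraries do not pair them by any label, and the deviations of same-numbered libraries correlated at 0.487 and 0.282 for DMSO and GV, -0.601 and -0.348 for BYBX and DMSO and -0.330 for BYBX and GV. Fitted with a replicate block, 60, 41 and 47 of the 60 genes were called in the 3 comparisons, and Hspa13 and Hspa2 turned to -0.012 and -0.029 for BYBX against DMSO. With the numbers of the BYBX libraries crossed, a choice made after seeing the data, BYBX against GV gave 53 lower and 0 higher.

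The median change of the tested genes was -2.94 for DMSO against GV and 1.56 for BYBX against DMSO with a pseudocount of 0.1, -2.89 and 1.54 with a filter at 5 FPKM, and -1.71 and 0.86 without one. At equal totals it was -0.86, 0.60 and, for BYBX against GV, -0.42, and after median centring -0.032, -0.089 and -0.19. Less the median of all entries, it was -0.67, 0.47 and -0.36 with a filter at 5 FPKM, -1.55, 0.81 and -0.87 without one, -0.30 for DMSO against GV at equal totals and -0.30 for BYBX against GV with a pseudocount of 0.1. With each library left out, the median for BYBX against DMSO ran from 1.18 to 1.40, and less that of all entries from 0.35 to 0.48 and, for BYBX against GV, from -0.32 to -0.22. As shares of the library total, the family sums with DMSO and BYBX stood, in percent of GV, at 21.1 and 55.7 (HSP70), 139 and 115 (HSP90), 77.8 and 96.4 (Hspd1 and Hspe1), 18.1 and 68.8 (DNAJA), 43.1 and 70.6 (DNAJB), 71.7 and 86.8 (DNAJC), 9.27 and 48.7 (CCT) and 59.0 and 78.3 (all 83 genes). With runs of at least 2 G, 58 genes held an rG4 motif.

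Among the 38 named genes, the log2 change turned sign at equal totals for DMSO against GV (Dnajb4 0.33, Dnajc3 1.17, Dnajc8 0.56, Hsp90aa1 0.40, Hsp90ab1 0.95, Hspa12a 0.097, Hspa14 0.85, Hspb1 0.74), for BYBX against DMSO (Dnajb4 -0.77, Dnajc3 -0.65, Dnajc8 -0.24, Hsp90aa1 -0.37, Hsp90ab1 -0.20, Hspa12a -0.057, Hspa13 -0.39, Hspa14 -0.34, Hspa2 -0.43, Hspa9 -0.36), for BYBX against GV (Dnajc3 0.52, Dnajc8 0.32, Hsp90aa1 0.036, Hsp90ab1 0.75, Hsp90b1 0.28, Hspa12a 0.040, Hspa14 0.51, Hspa5 0.032). After median centring it turned for DMSO against GV (Dnajb4 0.78, Dnajc3 1.63, Dnajc8 0.99, Hsp90aa1 0.82, Hsp90ab1 1.38, Hsp90b1 0.080, Hspa12a 1.34, Hspa13 1.28, Hspa14 1.35, Hspa2 1.02, Hspa9 0.27, Hspb1 1.31, Hspb11 0.60, Hspb6 0.78, Hspe1 0.15), for BYBX against DMSO (Cct8 -0.52, Dnaja2 -0.17, Dnajb4 -1.17, Dnajc3 -1.05, Dnajc8 -0.63, Hsp90aa1 -0.75, Hsp90ab1 -0.59, Hspa12a -0.89, Hspa13 -1.28, Hspa14 -0.76, Hspa2 -1.25, Hspa4l -0.30, Hspa9 -0.77, Hspb1 -0.24, Hspb11 -0.42, Hspb6 -0.78, Hspd1 -0.17, Hspe1 -0.11), for BYBX against GV (Dnajc3 0.57, Dnajc8 0.35, Hsp90aa1 0.070, Hsp90ab1 0.79, Hsp90b1 0.32, Hspa12a 0.46, Hspa13 0.0093, Hspa14 0.58, Hspa5 0.079, Hspb11 0.18, Hspe1 0.037). A pseudocount of 0.1 turned it for BYBX against DMSO (Hspa13 -0.20, Hspa2 -0.20). With a library left out the change of BYBX against DMSO ran from -0.42 to 0.43 for Hspa13 and from -0.56 to 0.62 for Hspa2, and that of BYBX against GV from -0.77 to 0.84 for Hspb1 and from -0.60 to 0.13 for Hsp90ab1. Calls of named genes were also lost, with these adjusted p-values in limma. With only the groups compared they were 0.0672 for Hspe1 (BYBX against DMSO) and 0.0808 for Dnajc8, 0.0648 for Hsp90b1 and 0.0765 for Hspa12a (BYBX against GV). With a replicate block they were 0.107 for Cct8, 0.0612 for Dnajc8 and 0.109 for Hspb6 (BYBX against DMSO) and 0.085 for Dnajc8, 0.0699 for Hsp90b1 and 0.0533 for Hspa12a (BYBX against GV). With no intensity trend they were 0.0654 for Hspb6 (BYBX against DMSO) and 0.0553 for Hspa12a (BYBX against GV), and with a pseudocount of 0.1 0.0514 for Dnajc8 and 0.0737 for Hspa12a (BYBX against GV). The cause of these changes was not tested beyond the construction of each setting. Depth is unknown, so precision rests on 2 or 3 libraries per group, and genes near 1 FPKM are the least certain.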
